A study of Mus musculus with 2 samples.

Results

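The cells described here are mural cells of the mouse dorsal root ganglion (DRG) that carried little *Myh11*, the gene of smooth muscle myosin heavy chain. Mural cells wrap the endothelial tube of blood vessels. Pericytes sit on capillaries inside the vessel's basement membrane, whereas smooth muscle cells form the contractile coat of arterioles and larger vessels, with intermediate cells between them. Both kinds depend on PDGF-B from the endothelium and its receptor PDGFRβ and on NOTCH3, and pericytes are known for the ATP-sensitive potassium channel made of KIR6.1 (*Kcnj8*) and SUR2 (*Abcc9*).

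Barcodes were chosen by measured values. A member had at least 5 *Rgs5* plus *Notch3* UMIs (unique molecular identifiers, 1 for each captured transcript) per 10000 and at least 2 in all, at least 1 UMI of *Kcnj8*, *Abcc9* or *Pdgfrb*, and at most 1 UMI of *Myh11*. It was also required to have few UMIs of glial, fibroblast, macrophage and endothelial markers. The rule selected 95 cells, 55 in replicate 1 and 40 in replicate 2, of 16882 barcodes that passed the quality cutoffs (0.563%). They made up 16.9% of the 563 cells that met the same rule at any *Myh11* count. The other 468 cells, with at least 2 *Myh11* UMIs, served as the closest comparison and are called *Myh11*-positive mural cells (263 and 205). The members are called *Myh11*-low mural cells after this rule. Of 16 further pericyte markers, 2 were called higher and 0 lower in them than in the *Myh11*-positive cells (beside 1.01% and 2.17% of all genes tested), and 13 were called higher than in fibroblasts (beside 7.19%), as described below. Fibroblasts were limited to under 5 *Rgs5* plus *Notch3* UMIs per 10000, so the rules favour calls of mural markers against them.

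The study compared satellite glial cells (SGCs) and other DRG cells, with the endothelin system as its question. The 2 samples analysed here are single-cell RNA-seq libraries of L4 and L5 DRGs from naive female C57BL/6 mice of 3 months, replicates 1 and 2. They hold 119101743 and 128668771 UMIs. Tissue was dissociated with papain and collagenase, and live cells were sorted with a viability dye. There was only 1 condition, so every comparison below is between cell classes of the same 2 samples. The number of animals behind each replicate is not given in the sources used here, and p-values measure only the spread between these samples. No member barcode was shared between the replicates (0 shared). The summed profiles of the members differed between replicates by more than counting noise, with a chi-square of 2.19 per degree of freedom over 8039 genes. Fibroblasts (206 and 274 cells) and endothelial cells (174 and 185) served as further comparison classes, and SGCs (2929 and 3016) as a class outside the vessel wall. The rules for fibroblasts and endothelial cells included under 5 *Rgs5* plus *Notch3* UMIs per 10000.

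*Myh11*-low mural cells were shallower than *Myh11*-positive mural cells. Their median was 6079 UMIs in replicate 1 and 6487 in replicate 2, against 8619 and 9284 in the *Myh11*-positive class. The lowest and highest members had 2972 and 11334 UMIs in replicate 1 and 1884 and 26849 in replicate 2. They had a median of 2579 and 2811.5 detected genes and a median mitochondrial share of 4.78% and 4.44%. Summed over cells, the 2 profiles held 349225 and 297948 UMIs, so the limit that a count of 0 allows, 3 UMIs, corresponds to 8.59 and 10.1 CPM before scaling. A cell with few UMIs reaches 2 *Myh11* UMIs less easily, and the part of this depth gap in the split by *Myh11* was not tested.

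The genes of the rule are given as a description. The unit of level is CPM, counts-per-million: a gene's summed UMIs relative to the total of its class and sample, scaled by the TMM method of edgeR. Since the libraries count 3′ ends, levels are compared between classes and not between genes. *Rgs5*, a regulator of G-protein signalling, stood at 5868 and 4862 CPM in replicates 1 and 2 of the *Myh11*-low cells, and at 7318 and 8314 CPM in the *Myh11*-positive cells. *Notch3* was at 1171 and 917 CPM against 1200 and 1344 CPM. *Pdgfrb* was at 539 and 488 CPM against 384 and 363 CPM. All 3 genes were thus high in both mural classes, while *Rgs5* and *Notch3* did not exceed 7.48 CPM in fibroblasts or endothelial cells and *Pdgfrb* reached 70.0 CPM at most there. The rules kept *Rgs5* plus *Notch3* low in fibroblasts and endothelial cells, so the contrast for these 2 genes is set by the rules.

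The potassium channel genes are part of the rule for both mural classes, so their values are a description too. *Kcnj8*, the pore subunit, was at 467 and 441 CPM in *Myh11*-low cells and at 154 and 111 CPM in *Myh11*-positive cells. *Abcc9*, the sulfonylurea receptor subunit, was at 479 and 438 CPM against 195 and 140 CPM. *Kcnj8* was detected in 45 of 55 and 36 of 40 members, *Abcc9* in 49 and 32, and both in 41 and 29. *Myh11* itself was at 95.9 and 56.2 CPM against 1838 and 1822 CPM, as the rule fixes. The members just inside the threshold had 1 *Myh11* UMI (37 and 19 cells), another 18 and 21 had 0, and the cells just outside had 2 UMIs (37 and 19 cells). No member lay close to the threshold for *Rgs5* plus *Notch3*: the lowest cells had 11.5 and 18.4 per 10000 UMIs, the medians were 70.1 and 65.8, and the highest cells had 182 and 181.

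*Kcnj8* (chr6:142564837-142571614) and *Abcc9* (chr6:142587862-142702315) are neighbours on the minus strand of mouse chromosome 6 (GRCm38, GENCODE M21), with 16247 bases between them. *Abcc9* overlaps 5330439B14Rik on the opposite strand. Their start regions are shown to set genes of the rule beside *Acta2* and *Myl9*, genes of the contractile list. Each runs 5′ to 3′ on the gene's strand from 250 bases before to 50 bases after the start, from RefSeq on GRCm38.p6. Capitals mark the core motif of the Notch effector RBPJ (TGGGAA) in the first 3 and the CArG box, the serum response factor motif of smooth muscle genes, in *Myl9*.
Kcnj8, chr6:142571565-142571864, minus strand: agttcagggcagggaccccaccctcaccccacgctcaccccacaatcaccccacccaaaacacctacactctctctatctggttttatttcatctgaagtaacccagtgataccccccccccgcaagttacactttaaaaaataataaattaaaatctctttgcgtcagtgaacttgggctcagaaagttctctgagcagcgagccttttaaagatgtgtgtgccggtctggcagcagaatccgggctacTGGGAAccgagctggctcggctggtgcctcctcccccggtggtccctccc
Abcc9, chr6:142702225-142702524, minus strand: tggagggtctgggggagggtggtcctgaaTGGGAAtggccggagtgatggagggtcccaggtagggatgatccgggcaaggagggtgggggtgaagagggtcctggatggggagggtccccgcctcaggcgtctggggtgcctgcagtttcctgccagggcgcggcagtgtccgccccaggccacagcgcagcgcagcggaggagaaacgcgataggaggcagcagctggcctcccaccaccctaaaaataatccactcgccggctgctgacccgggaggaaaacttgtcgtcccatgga
Acta2, chr19:34255324-34255623, minus strand: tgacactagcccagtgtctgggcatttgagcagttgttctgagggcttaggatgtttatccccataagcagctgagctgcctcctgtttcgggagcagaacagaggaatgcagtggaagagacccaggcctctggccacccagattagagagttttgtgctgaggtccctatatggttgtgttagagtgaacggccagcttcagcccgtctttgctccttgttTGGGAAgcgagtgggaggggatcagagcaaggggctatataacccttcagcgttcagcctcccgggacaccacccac
Myl9, chr2:156775214-156775513, plus strand: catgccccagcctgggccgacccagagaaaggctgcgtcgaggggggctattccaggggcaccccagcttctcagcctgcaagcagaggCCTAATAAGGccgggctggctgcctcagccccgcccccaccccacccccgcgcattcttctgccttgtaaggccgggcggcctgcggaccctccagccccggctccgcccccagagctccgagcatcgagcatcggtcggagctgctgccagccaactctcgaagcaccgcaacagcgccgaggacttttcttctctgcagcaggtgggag

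Counted from the start, with the first base of the gene at 0, the RBPJ core began at 0 in *Kcnj8*, at -221 in *Abcc9* and at -27 in *Acta2*, and the CArG box at -161 in *Myl9*. The CArG box was searched as CC, 6 bases of A or T and GG with no mismatch. With 1 mismatch allowed, 2 stretches matched in *Acta2*, 2 in *Myl9*, 1 in *Kcnj8* and 0 in *Abcc9*, and 8 of 20 contractile genes and 4 of 12 further pericyte markers held a match, beside 23.8% of all promoters, and such matches are not in capitals. Both motifs were searched on both strands, and an RBPJ core can share up to 3 bases with either end of a CArG box. Of 27025 promoters of this length, 28.3% held the RBPJ core and 1.81% a CArG box. Of the 24 contractile genes described below, 20 had a promoter in the table, and 3 of these (*Ldb3*, *Myl6* and *Myl9*) held an exact CArG box and 6 (30%) the RBPJ core. Of the 16 further pericyte markers, 12 had a promoter, with a CArG box in 0 and the RBPJ core in 6. Among the 5 marker genes of the rule, 4 had a promoter, with a CArG box in 0. The RBPJ core was in 2 of them, *Kcnj8* and *Abcc9*, which are the 2 shown. These matches are letters in a window, and no binding was measured.

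**Figure D1:**
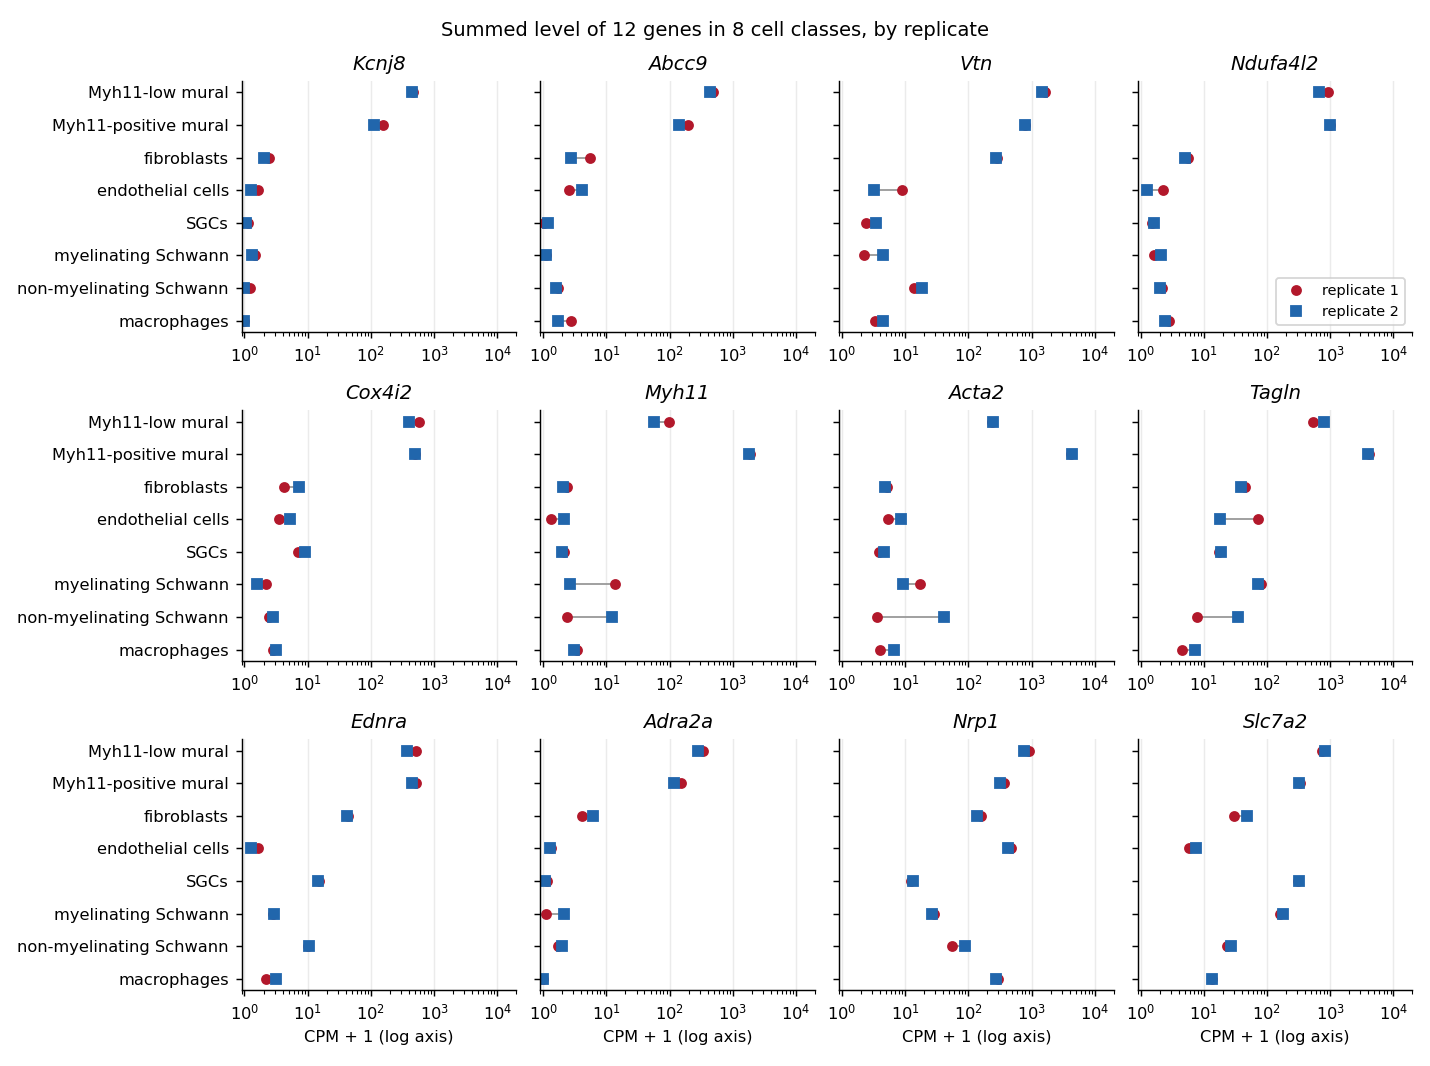
Levels of 12 genes (CPM + 1, log axis) in 8 cell classes, with circles for replicate 1, squares for replicate 2 and a line joining them. *Kcnj8*, *Abcc9*, *Vtn*, *Adra2a*, *Nrp1* and *Slc7a2* lie higher in *Myh11*-low than in *Myh11*-positive cells, *Myh11*, *Acta2* and *Tagln* lie lower, and *Ednra* overlaps between them.

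Of 17132 genes tested with edgeR's quasi-likelihood test at a Benjamini-Hochberg adjusted p of 0.05, 173 were called higher (1.01%) and 372 lower (2.17%) in *Myh11*-low cells, so 31.7% of the calls were higher, and 2259 genes had an unadjusted p under 0.05. With DESeq2 51.3% of the calls were higher (431 against 409), and without a filter on low counts 42.2%. The median log2 fold change over all genes was -0.07, and 3600 of the tested genes had no UMI in the members. Against fibroblasts 1231 genes were called higher (7.19%) and 1609 lower (9.39%), and against endothelial cells 1935 higher (11.3%) and 2280 lower (13.3%). Against *Myh11*-positive cells, 210 genes were called without replicate 1 and 122 without replicate 2, and after thinning every cell to 1000 UMIs 13 were called higher and 177 lower. The 3 comparisons share the members' profiles, and 53 genes were called higher, and 39 lower, in all of them.

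Of the 16 further pericyte markers, which the rule did not use, 2 were called higher and 0 lower than in *Myh11*-positive cells, beside 1.01% and 2.17% of all genes tested, with a median log2 fold change of 0.14. At an unadjusted p of 0.05, edgeR gave 3 higher and 5 lower, and DESeq2 called 1 higher and 2 lower. Against fibroblasts 13 of 16 were called higher (median 3.56, beside 7.19% of all genes), and against endothelial cells 14 (median 6.74, beside 11.3%). Both of these classes were limited in *Rgs5* plus *Notch3*, which favours such calls. *Vtn*, the matrix protein vitronectin, was at 1643 and 1453 CPM in *Myh11*-low cells and at 775 and 778 CPM in *Myh11*-positive cells. Both replicates of the members exceeded both of the other class, a log2 difference of 1.00 ± 0.20 (n = 2 samples per class, edgeR adjusted p = 0.01). Here and below, ± is an approximate SE, the log2 difference divided by the square root of the quasi-likelihood F statistic. *Steap4*, a metalloreductase, was at 485 and 405 CPM against 285 and 218 CPM (0.82 ± 0.19, adjusted p = 0.022).

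Other pericyte markers did not pass the test. The replicates did not overlap in 7 of the 16 genes on the higher side and 6 on the lower, beside 14.1% and 27.3% of all genes tested. *Ndufa4l2*, a hypoxia-inducible mitochondrial protein, was at 917 and 654 CPM against 992 and 992 CPM. *Cox4i2*, a cytochrome c oxidase subunit, was at 568 and 394 CPM against 499 and 500 CPM, and *Higd1b* at 420 and 337 CPM against 495 and 504 CPM. *Cspg4*, which encodes the NG2 proteoglycan, was at 109 and 71.0 CPM against 164 and 176 CPM, below in both replicates without passing the test (adjusted p = 0.061). *Ggt1* had no UMI in the members, and *Atp13a5* had 2 and 1 UMIs.

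*Vtn* detection was also compared at equal depth. After each cell was thinned to 1000 UMIs, *Vtn* had a UMI in 76.4% of the members of replicate 1 (exact binomial 95% interval 63.0 to 86.8%) and in 77.5% of those of replicate 2. The shares in *Myh11*-positive cells were 43.0% and 47.3%. In SGCs, whose median depth was 15509 and 16208 UMIs and which should lack *Vtn*, they were 0.137% and 0.265%. Without thinning, *Vtn* was found in 98.2% and 97.5% of members and in 81.7% and 85.4% of *Myh11*-positive cells. Intervals cover counting error only.

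**Figure D2:**
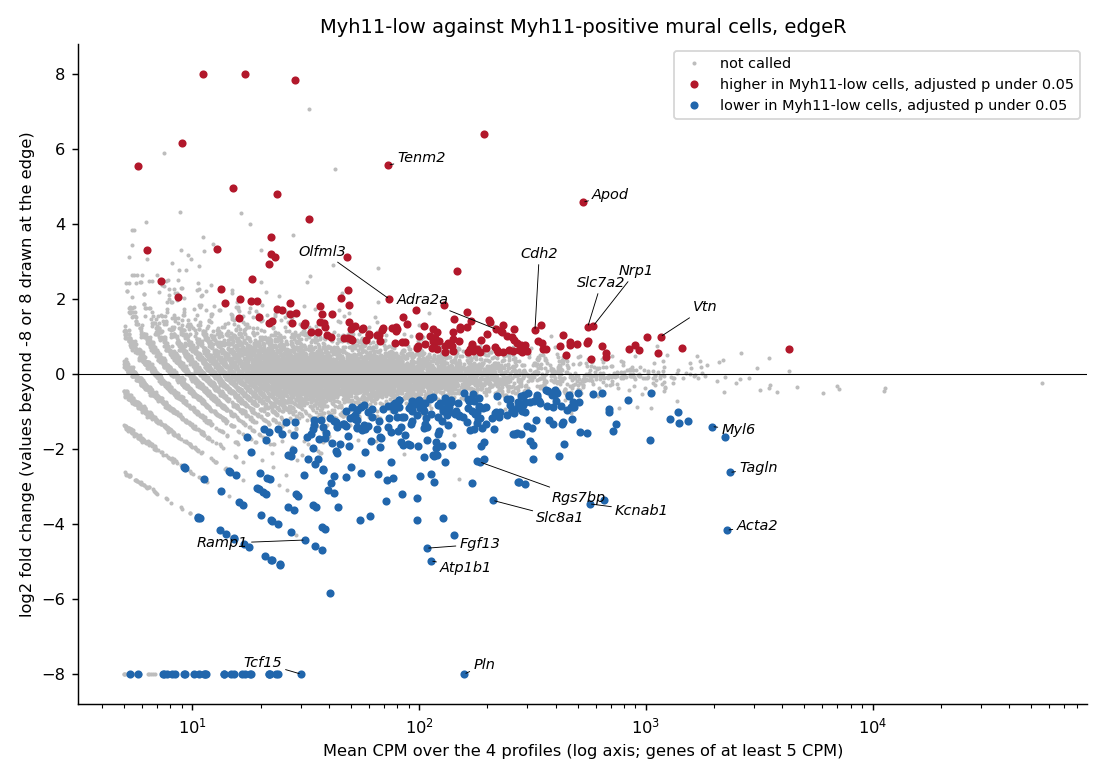
Each point is 1 tested gene of at least 5 CPM, with the mean CPM over the 4 mural profiles on the x axis (log axis) and the log2 fold change of *Myh11*-low against *Myh11*-positive cells on the y axis, red for called higher and blue for called lower. Values beyond -8 or 8 are drawn at the edge, where *Pln* and *Tcf15*, with no UMI in the members, lie at the lower one.

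Genes of the contractile apparatus were in the fit, and 18 of the 24 listed are among the 372 lower calls. Since *Myh11*, which is part of it, split the classes, these calls are not read as results and the values are a description. Of 24 such genes, 23 were lower in both replicates of the *Myh11*-low cells than in either replicate of the *Myh11*-positive cells, which held for 27.3% of all genes tested. The exception was *Des* (desmin), whose replicates overlapped at 508 and 379 CPM against 407 and 418 CPM. The median log2 fold change was -1.60, beside -0.07 over all genes. *Acta2*, smooth muscle actin, was at 236 and 249 CPM against 4251 and 4414 CPM, which is 17.9-fold lower. *Tagln*, an actin-binding protein, was at 526 and 793 CPM against 4096 and 3999 CPM, 6.16-fold lower. *Cnn1* (calponin) was at 0 and 5.92 CPM against 46.9 and 42.6 CPM.

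Some contractile genes had no UMI in the members. *Pln* (phospholamban), the inhibitor of the sarcoplasmic calcium pump, was at 0 in both replicates against 312 and 320 CPM, at least 70.0-fold lower, where 3 UMIs over the members set the bound. *Ldb3*, a component of contractile anchoring sites, was at 0 in both replicates against 33.4 and 34.9 CPM, at least 7.56-fold lower. Other genes of the list had UMIs in both replicates of the members. *Myl9*, a regulatory myosin light chain, was at 1052 and 764 CPM against 2266 and 2075 CPM, *Myl6* at 1076 and 1083 CPM against 2979 and 2717 CPM, and *Cald1* (caldesmon) at 2050 and 1645 CPM against 2520 and 2641 CPM. The myosin light chain kinase gene *Mylk* was at 272 and 278 CPM against 795 and 856 CPM.

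The members were not devoid of contractile transcripts. Against fibroblasts, 17 of the 24 genes were called higher and 0 lower by edgeR (median 2.42, beside 7.19% and 9.39% of all genes). Against endothelial cells, 19 were called higher and 0 lower (median 4.32, beside 11.3% and 13.3%). These 2 classes were defined without *Myh11* but with a limit on *Rgs5* plus *Notch3*, while the members were still limited to at most 1 *Myh11* UMI. *Des* was at 0 in both replicates of the fibroblasts. *Tpm1*, a tropomyosin, was at 917 and 695 CPM in the members against 216 and 250 CPM in fibroblasts and 145 and 120 CPM in endothelial cells.

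The remaining *Acta2* was concentrated in few cells. *Acta2* had no UMI in 38 of 55 members of replicate 1 (69.1%) and in 30 of 40 of replicate 2 (75%), against 22.8% and 17.1% of the *Myh11*-positive cells. The 3 members with most *Acta2* held 63.7% and 77.4% of its UMIs. *Tagln* was spread more widely in replicate 1, where the top 3 cells held 33.0% of its UMIs, than in replicate 2, where they held 82.1%. At 1000 UMIs per cell, *Acta2* was found in 7 of 55 and 4 of 40 members, in 63.5% and 70.7% of *Myh11*-positive cells and in 0.512% and 0.597% of SGCs.

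Summed over the 24 genes, the members had a median of 85.4 and 72.1 contractile UMIs per 10000, from 42.4 to 243 in replicate 1 and from 21.4 to 255 in replicate 2. The *Myh11*-positive cells had medians of 175 and 207 and reached 828 and 806. Only 1 member in each replicate reached 200 per 10000, against 120 of 263 and 104 of 205 *Myh11*-positive cells. The *Myh11*-positive cells with 2 to 4 *Myh11* UMIs (78 and 55 cells) resembled the members more than the rest of their class, with medians of 83.2 and 92.6 per 10000 and 3 cells at 200 or more in each replicate.

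**Figure D3:**
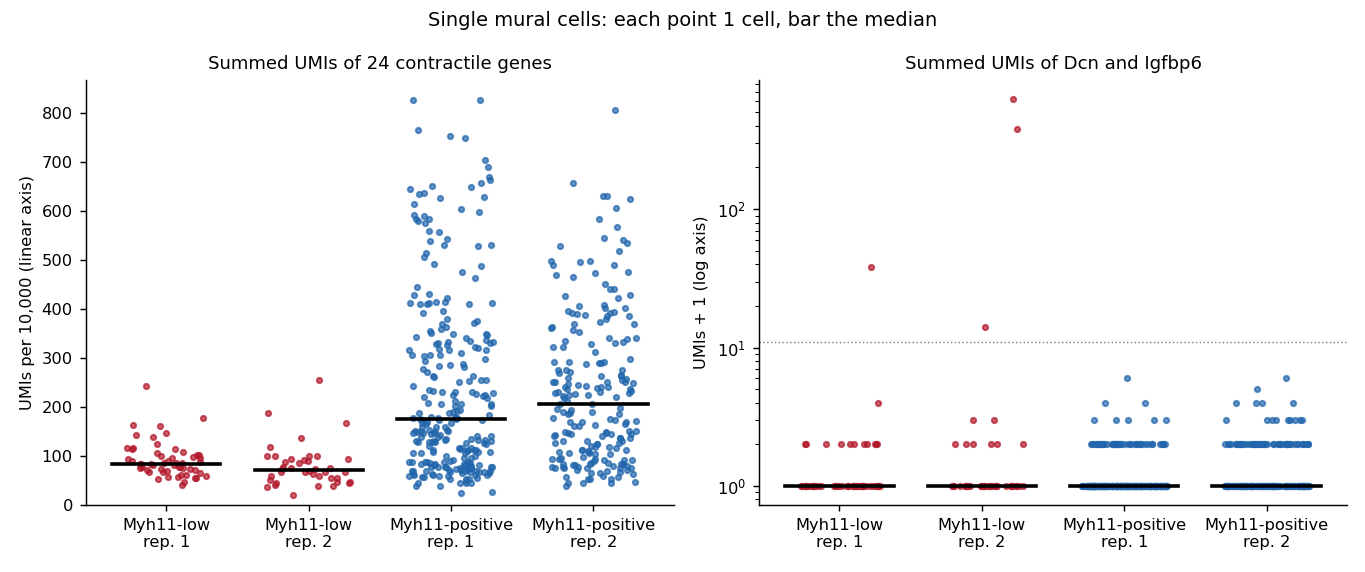
Each point is 1 mural cell by class and replicate and each bar a median, for the summed UMIs of 24 contractile genes per 10000 (left, linear axis) and for *Dcn* plus *Igfbp6* UMIs + 1 (right, log axis, dotted line at 10 UMIs). The members reach 243 and 255 contractile UMIs per 10000 against 828 and 806 in *Myh11*-positive cells, and 1 and 3 members lie above the dotted line.

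The threshold lay on a gradient. All 563 mural cells were ordered by *Myh11* count into cells with 0, 1, 2 to 4, 5 to 19 and at least 20 UMIs, and levels were summed in each as CPM without TMM scaling. *Acta2* was at 211, 283, 531, 3035 and 8303 CPM along these bins in replicate 1 and at 345, 204, 662, 3407 and 7527 in replicate 2. The steep rise came after the first 3 bins, so the cells just outside the threshold were closer to the members than to the cells richest in *Myh11*. *Pln* was at 0, 0, 1.59, 100.2 and 759 CPM in replicate 1 and at 0, 0, 9.42, 132 and 662 in replicate 2.

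Several genes ran the other way. *Kcnj8* was at 643, 458, 325, 179 and 16 CPM in replicate 1 and at 563, 422, 308, 113 and 21 in replicate 2. *Cdh2* (N-cadherin) was at 560, 541, 499, 258 and 37 CPM in replicate 1 and at 454, 460, 426, 194 and 25.7 in replicate 2. *Vtn* fell from 2067 CPM at 0 *Myh11* UMIs to 213 at 20 or more in replicate 1, and from 1652 to 351 in replicate 2. *Adra2a* peaked at 1 *Myh11* UMI in replicate 1 (412 CPM) and at 2 to 4 in replicate 2 (389), and ended at 27 and 5.

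Along the same bins, *Ednra* was at 689, 528, 550, 558 and 467 CPM in replicate 1 and at 381, 482, 523, 452 and 441 in replicate 2. *Cox4i2* was at 542, 666, 521, 487 and 522 CPM in replicate 1 and at 387, 520, 511, 474 and 562 in replicate 2. At 0 *Myh11* UMIs, *Ednra* was thus highest in replicate 1 and lowest in replicate 2. *Rgs5* went from 5814 CPM at 0 to 9381 at 5 to 19 and 5128 at 20 or more *Myh11* UMIs in replicate 1, and from 4798 to 10110 and 7630 in replicate 2. The median depth rose along the same bins, from 5866.5 to 10890 UMIs in replicate 1 and from 6582 to 11693.5 in replicate 2, and its part in these patterns was not tested.

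**Figure D4:**
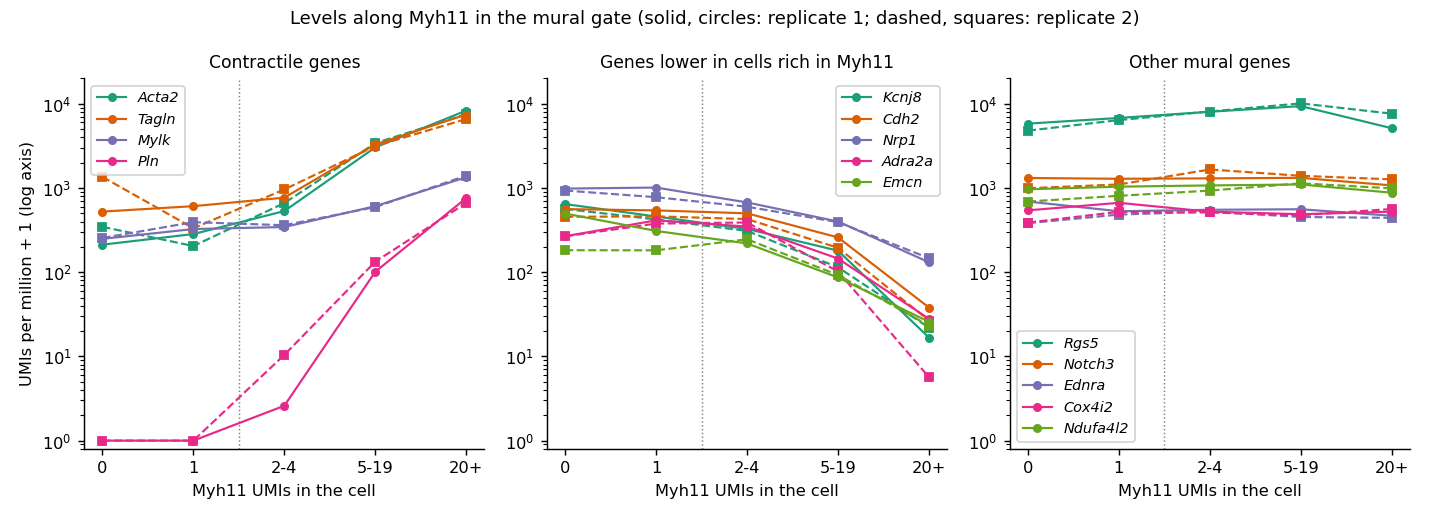
Levels (unscaled CPM + 1, log axis) of 14 genes in mural cells binned by *Myh11* UMIs (0, 1, 2 to 4, 5 to 19, 20 or more), with solid lines for replicate 1, dashed lines for replicate 2 and the rule's threshold as a dotted line. *Acta2* climbs after 4 UMIs, *Kcnj8* falls along the whole axis, and *Ednra* at 0 UMIs differs between the replicates (689 and 381 CPM).

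Counts of called genes in the lists that follow stand beside 1.01% higher and 2.17% lower over all genes tested. Genes outside the contractile list that rise or fall with *Myh11* are separated by the same split. The part of the split in the calls below was not tested. Of 34 tested genes of potassium and calcium handling, 2 were called higher and 9 lower in *Myh11*-low cells, with a median log2 fold change of -0.89, or -0.44 over the 18 genes of at least 50 CPM. There were 2 and 16 at an unadjusted p of 0.05, and 2 and 11 by DESeq2. *Kcnq5*, a voltage-gated potassium channel, was higher but varied between replicates, at 708 and 266 CPM against 227 and 174 CPM (1.30 ± 0.28, edgeR adjusted p = 0.014), and its direction turned with members of 0 *Myh11* UMIs (-0.31), where only the 21 cells of replicate 2 made a profile.

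*Atp2a2*, the SERCA2 pump that fills the sarcoplasmic calcium store, was at 231 and 207 CPM against 502 and 612 CPM (-1.34 ± 0.19, adjusted p = 0.00061). *Casq2*, which binds calcium inside the store, was at 5.18 and 32.6 CPM against 163 and 192 CPM. *Itpr1*, an IP3-gated release channel, was at 114 and 145 CPM against 286 and 290 CPM (-1.16 ± 0.22, adjusted p = 0.0063). *Ryr2*, a ryanodine-gated release channel, had no UMI against 42.8 and 44.0 CPM, at least 9.61-fold lower. Other genes of the store on the list, *Atp2a3*, *Itpr2*, *Itpr3*, *Ryr3* and *Stim1*, were not called. The remaining lower genes were the potassium channel genes *Kcna5*, *Kcnk3* and *Kcnmb1*, *Abcc8*, which encodes the SUR1 subunit, and *Atp2b1*, a calcium pump of the plasma membrane. Outside the list, *Slc8a1*, the sodium-calcium exchanger from the transporter list, was at 38.9 and 35.5 CPM against 346 and 426 CPM (-3.37 ± 0.42, adjusted p = 0.00017). *Kcnab1*, a potassium channel beta subunit that was chosen after its values were seen, was at 88.1 and 101 CPM against 1009 and 1063 CPM (-3.46 ± 0.30, adjusted p = 6.1e-06). Along the *Myh11* bins, *Kcnab1* was at 184, 58, 257, 788 and 1811 unscaled CPM in replicate 1. In replicate 2 the bins held 24, 226, 349, 871 and 1676.

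Of 29 tested receptors through which vessels are constricted and RGS genes, 2 were called higher and 3 lower and 24 did not pass the test, with a median log2 fold change of 0.00 (beside 1.01% and 2.17% called of all genes). *Agtr1a*, the angiotensin II type 1a receptor, was at 417 and 213 CPM against 158 and 127 CPM (1.16 ± 0.22, edgeR adjusted p = 0.0064). *Adra2a*, the alpha-2A adrenergic receptor, was at 332 and 278 CPM against 151 and 116 CPM (1.19 ± 0.21, adjusted p = 0.004), with 3.18 and 5.16 CPM in fibroblasts. At 1000 UMIs per cell, *Adra2a* was found in 19 of 55 and 16 of 40 members, in 15.2% and 10.2% of *Myh11*-positive cells and in 0 of 2929 and 0 of 3016 SGCs, which allows a share with a UMI at that depth of up to 0.102% and 0.0995%. Without thinning it was found in 81.8% and 82.5% of members, 44.5% and 36.1% of *Myh11*-positive cells and 7 and 3 SGCs (0.239% and 0.0995%).

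The lower receptor genes were *Htr1b*, a serotonin receptor, at 2.59 and 0 CPM against 43.6 and 43.5 CPM, and *Tbxa2r*, the thromboxane receptor, at 5.18 and 2.96 CPM against 28.1 and 22.5 CPM. *Rgs7bp*, a membrane anchor of RGS proteins, was at 54.4 and 68.1 CPM against 297 and 321 CPM (-2.34 ± 0.29, adjusted p = 0.00017). Both replicates of the members lay below both of the *Myh11*-positive class for each of these 3 genes.

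For the endothelins, the receptor was in both mural classes and the ligands were hardly found in the members. *Ednra*, the endothelin A receptor (chr8, minus strand, 8 exons), was at 524 and 376 CPM in *Myh11*-low cells and at 513 and 445 CPM in *Myh11*-positive cells, a log2 difference of -0.08 ± 0.13 (edgeR adjusted p = 0.89). In fibroblasts it was at 43.1 and 41.3 CPM (3.42 ± 0.15, adjusted p = 1.2e-10) and in endothelial cells at 0.615 and 0.283 CPM (9.95 ± 0.28, adjusted p = 5.4e-13). The endothelial levels lie under the level of 3 UMIs (0.976 and 0.847 CPM before scaling), and the ± of 0.28 understates their counting error. At 1000 UMIs *Ednra* was found in 56.4% and 35.0% of members, 38.8% and 41.5% of *Myh11*-positive cells and 1.19% and 0.962% of SGCs. Without thinning the shares were 89.1% and 80.0%, 95.8% and 95.1%, and 15.3% and 15.2%.

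*Ednrb*, the endothelin B receptor, was at 98.5 and 91.7 CPM in the members and at 117 and 87.0 CPM in *Myh11*-positive cells. RNA of empty droplets held it at 587 and 544 CPM, and SGCs carried it in 60.7% and 60.8% of thinned cells, against 12.7% and 12.5% of members. *Edn1*, the gene of endothelin-1, had no UMI in 55 and 40 members, which allows a share of cells with a UMI of up to 5.45% and 7.5%, while endothelial cells had 105 and 139 CPM. *Edn3* was found in 1 and 2 members before thinning and in 0 after.

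Cyclic nucleotide signalling relaxes vessels. Of its 33 genes tested, 3 were called higher and 3 lower (median log2 fold change -0.14), beside 1.01% and 2.17% of all genes, with 4 and 8 at an unadjusted p of 0.05. The replicates did not overlap in 8 genes on the higher and 13 on the lower side, beside 14.1% and 27.3% of all genes. *Prkg1*, the cGMP-dependent kinase, was at 3520 and 2814 CPM against 3807 and 3959 CPM (adjusted p = 0.43). The 3 higher genes encode phosphodiesterases that hydrolyse cAMP: *Pde8b* at 658 and 509 CPM against 329 and 234 CPM, *Pde7b* at 124 and 198 CPM against 77.5 and 60.7 CPM, and *Pde8a* at 62.2 and 50.3 CPM against 20.4 and 16.7 CPM. Other cAMP phosphodiesterase genes of the list, *Pde3a*, *Pde3b*, *Pde4b* and *Pde4d*, were not called. The lower genes were *Ramp1*, a subunit of the CGRP receptor, at 0 and 5.92 CPM against 58.7 and 60.7 CPM, *Mrvi1*, a target of the cGMP kinase, and *Adcy5*, an adenylyl cyclase.

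Of 21 tested PDGF, VEGF and angiopoietin genes, 1 was called higher and 5 lower (beside 1.01% and 2.17% of all genes), with a median log2 fold change of -0.59. The 5 lower ones were all ligands: *Pdgfa* (218 and 154 CPM against 352 and 356 CPM), *Pdgfb*, *Pdgfc*, *Pdgfd* (85.5 and 71.0 CPM against 264 and 327 CPM) and *Pgf* (46.7 and 26.6 CPM against 124 and 137 CPM). Other ligands, such as *Angpt1* (259 and 210 CPM against 435 and 274 CPM), were not called, although *Angpt1* was without the filter on low counts (edgeR adjusted p = 0.0055). The higher gene was *Nrp1*, a co-receptor for VEGF and semaphorins, at 907 and 761 CPM against 364 and 319 CPM (1.29 ± 0.17, edgeR adjusted p = 0.00033). Endothelial cells had *Nrp1* at 480 and 418 CPM, below both replicates of the members.

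In the Notch pathway list, which holds receptors, ligands, cofactors and targets, 0 of 19 genes were called higher and 1 lower by edgeR (median 0.00), with 2 and 3 at an unadjusted p of 0.05 and 1 and 1 by DESeq2. *Nrarp*, a feedback inhibitor, was at 104 and 88.8 CPM against 207 and 223 CPM (-1.15 ± 0.21, adjusted p = 0.0049). *Heyl*, a transcriptional target, was at 264 and 260 CPM against 180 and 145 CPM, above in both replicates without passing the test (adjusted p = 0.13), and at 7.78 and 4.90 CPM in fibroblasts. Of 28 TGF-beta and BMP genes tested, 0 were called higher and 4 lower by edgeR, with a median of 0.01 (4 and 7 at an unadjusted p of 0.05, 0 and 3 by DESeq2). *Id1*, a BMP target, was at 36.3 and 47.4 CPM against 189 and 190 CPM (-2.19 ± 0.26, adjusted p = 9.4e-05), and *Smad7*, *Ltbp1* and *Tgfb2* were the others.

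Matrix genes were taken as separate lists. Of 34 basement membrane and integrin genes, edgeR called 0 higher and 4 lower (median -0.10): the laminin genes *Lama5* and *Lamb2* and the integrin genes *Itga7* and *Itgb8*. There were 5 and 11 at an unadjusted p of 0.05, and 3 and 7 by DESeq2. *Col4a1*, a main collagen of the basement membrane, was at 772 and 657 CPM against 600 and 648 CPM (adjusted p = 0.75) and at 174 and 155 CPM in fibroblasts. Of 31 interstitial matrix genes, 4 were called higher and 3 lower (median 0.06), with 8 and 5 at an unadjusted p of 0.05 and 5 and 3 by DESeq2. *Col3a1* was at 689 and 749 CPM against 410 and 369 CPM (0.88 ± 0.17, adjusted p = 0.0079), with 2830 and 2359 CPM in fibroblasts, and the others were *Col5a1*, *Col6a3* and *Vcan*. The fibroblast markers described below summed to 704 and 4242 CPM in the members against 440 and 489. Their part in these calls was not tested beyond the alternatives given there. Without 4 cells rich in *Dcn* or *Igfbp6*, *Col6a3* was no longer called (0.77, edgeR adjusted p = 0.054). *Eln*, the elastin gene of arterial walls, was at 13.0 and 17.8 CPM against 84.0 and 84.7 CPM (-2.47 ± 0.44, adjusted p = 0.0039). *Timp4* and *Adamts5* were the other lower genes, *Adamts5* not with a replicate block (adjusted p = 0.058).

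Among 32 solute transporters tested, 2 were called higher and 3 lower (median -0.09), with 9 and 5 at an unadjusted p of 0.05 and 3 and 5 by DESeq2. *Slc7a2*, a carrier of arginine and other cationic amino acids, was at 752 and 814 CPM against 335 and 317 CPM (1.26 ± 0.14, edgeR adjusted p = 6.2e-05), with 29.3 and 46.7 CPM in fibroblasts. *Slc6a13*, the other, rested on replicate 2 (2.59 and 56.2 CPM). Of 26 chemokine, cytokine and adhesion genes tested, 2 were called higher and 2 lower (median 0.26), with 7 and 3 at an unadjusted p of 0.05 and 5 and 2 by DESeq2. A replicate block also gave 2 and 2, but not all the same genes. *Cdh2*, an adhesion molecule of pericyte-endothelial contacts, was at 495 and 402 CPM against 234 and 165 CPM (1.17 ± 0.18, adjusted p = 0.0015), and *Icam1* at 31.1 and 26.6 CPM against 7.34 and 7.65 CPM, no longer called with a replicate block (adjusted p = 0.05). *Ccl7* and *Cdh6* were lower.

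Of 38 transcription factor genes tested, 1 was called higher, *Mrtfb*, a cofactor of the serum response factor (140 and 154 CPM against 83.6 and 101 CPM, adjusted p = 0.027), and its direction turned in cells thinned to 1000 UMIs (-0.10). The 3 lower were *Tcf15*, with no UMI in the members against 66.9 and 53.6 CPM, *Epas1*, which encodes HIF-2α, at 404 and 349 CPM against 613 and 652 CPM, and *Nfib*. The median over the list was -0.02, with 4 and 8 genes at an unadjusted p of 0.05 and 2 and 5 called by DESeq2. *Myocd*, the cofactor that drives smooth muscle genes, was at 15.6 and 0 CPM against 92.6 and 135 CPM and belongs to the contractile list. Immediate early and heat shock genes, which dissociation can induce, gave 0 higher and 2 lower of 23 by edgeR (*Atf3* and *Klf2*, median 0.17), 5 and 4 at an unadjusted p of 0.05, 2 and 3 by DESeq2 and 1 and 2 with a replicate block, with *Fos* at 4154 and 4655 CPM against 4522 and 3840 CPM. Among 18 respiratory chain isoforms tested, edgeR called 0 higher and 2 lower (median -0.31; 0 and 5 at an unadjusted p of 0.05, 0 and 3 by DESeq2), *Ckb*, a creatine kinase, at 189 and 139 CPM against 442 and 427 CPM, and *Cox8a*.

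**Figure D5:**
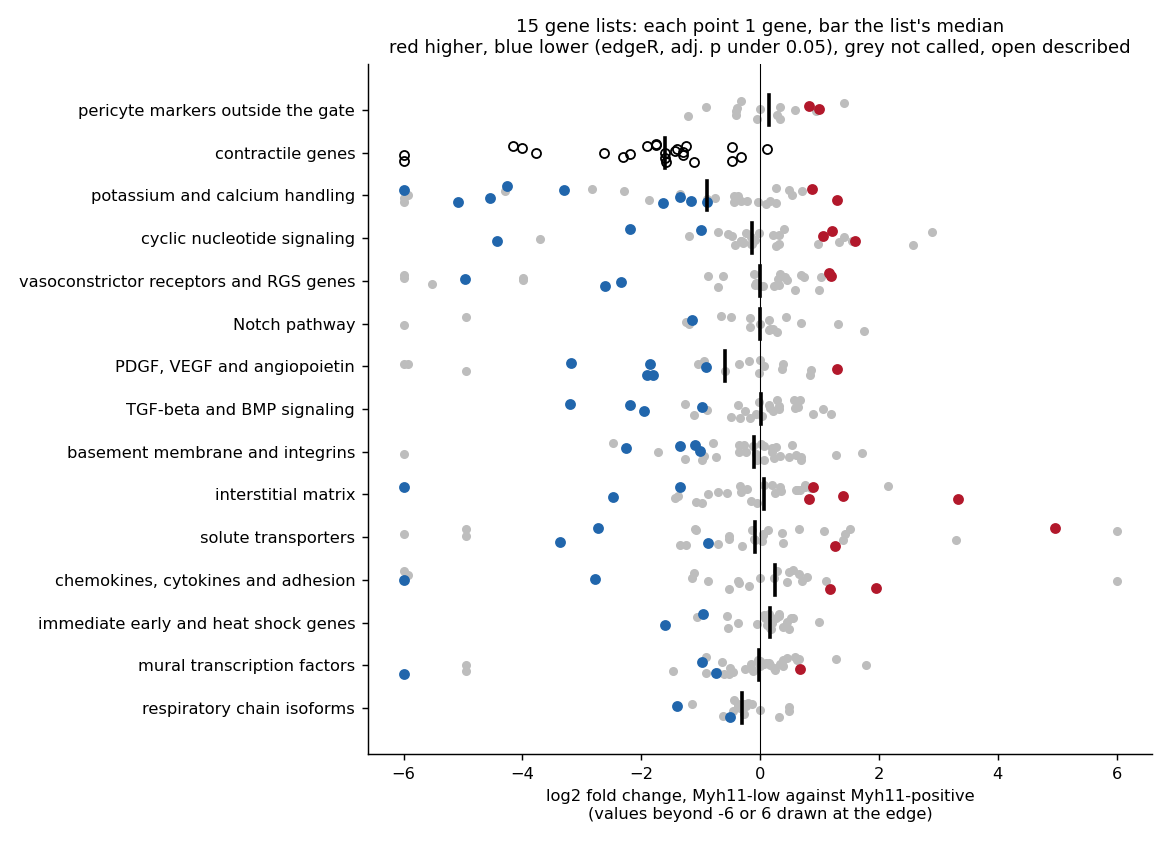
Log2 fold changes of *Myh11*-low against *Myh11*-positive mural cells for the genes of each functional list, with 1 point per gene, a bar for each list's median, red and blue for genes called higher and lower, open circles for contractile genes (described, calls not shown) and values beyond -6 or 6 drawn at the edge. The medians run from -1.60 for contractile genes to 0.26 for chemokines, cytokines and adhesion, with potassium and calcium handling at -0.89 (-0.44 over genes of at least 50 CPM).

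Among called genes of at least 50 CPM, the largest increases over the *Myh11*-positive cells included *Olfml3*, a secreted olfactomedin-like protein, at 109 and 127 CPM against 29.4 and 29.2 CPM (2.01 ± 0.30, edgeR adjusted p = 0.00096). *Fhl2*, a LIM-domain cofactor, was at 301 and 189 CPM against 89.3 and 68.4 CPM (1.64 ± 0.28, adjusted p = 0.0032). *Hic1*, *Eda*, *Mrc2*, *Ralgps2*, *Bace2*, *Foxd2os* and *Pde8a* belong to the same 12, as do *Tenm2* and *Apod*, which are taken up with the doubtful cells. *Olfml3*, *Mrc2* and *Eda* had higher levels in fibroblasts than in the members (392 and 433 CPM for *Olfml3*), whereas *Fhl2* was at 60.1 and 52.6 CPM there.

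The largest decreases, beside *Pln*, *Acta2*, *Tcf15* and *Ramp1*, included *Fgf13*, a regulator of sodium channels, which was at 5.18 and 11.8 CPM against 196 and 220 CPM (-4.64 ± 0.40, adjusted p = 5.3e-06). *Nrgn* (neurogranin), which binds calmodulin, was at 23.3 and 2.96 CPM against 231 and 314 CPM (-4.30 ± 0.40, adjusted p = 2.1e-05). *Synm*, an intermediate filament protein, was at 2.59 and 2.96 CPM against 64.0 and 69.3 CPM. *Atp1b1*, a sodium pump subunit, *Perp*, *Tspan2* and Gm37800 were also among them.

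Of the genes at least 4-fold higher than in all 3 classes, 4 met the threshold and 2 of these rest on 4 UMIs (5830432E09Rik and *Lrrd1*). *Grip1*, a scaffold protein of receptors, was at 38.9 and 38.5 CPM against 5.71 and 4.3 CPM in *Myh11*-positive cells, 4.24 and 9.28 CPM in fibroblasts and 0.308 and 1.70 CPM in endothelial cells (2.93 ± 0.55 against *Myh11*-positive cells, adjusted p = 0.0057). RNA of empty droplets held *Grip1* at 26.2 and 38.8 CPM. Among the 53 genes called higher than in each of *Myh11*-positive cells, fibroblasts and endothelial cells were *Vtn*, *Steap4*, *Nrp1*, *Slc7a2*, *Agtr1a*, *Adra2a* and *Cdh2*. SGCs, which are not among these classes, had *Slc7a2* at 304 and 318 CPM and *Cdh2* at 161 and 174 CPM, and carried a UMI of *Slc7a2* in 20.9% and 20.8% of thinned cells, against 60.0% and 52.5% of the members. For *Cdh2* it was 382 of 2929 and 421 of 3016 thinned SGCs, against 21 of 55 and 17 of 40 members. Without thinning the SGC shares were 80.1% and 81.0% for *Slc7a2* and 76.1% and 78.0% for *Cdh2*, and those of the members 89.1% and 87.5% for either gene. *Ifitm1*, *Stac* and *Vstm4* are further ones of the 53, chosen after their values were seen. *Stac*, an adaptor of calcium channels, was at 347 and 337 CPM against 155 and 189 CPM in *Myh11*-positive cells and at 1.06 and 0.774 CPM in fibroblasts.

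Markers of other cell types were measured in the members. The endothelial list of 10 genes summed to 613 and 383 unscaled CPM, against 359 and 411 in *Myh11*-positive cells and 10183 and 10094 in endothelial cells, and 6 and 4 of its genes had no UMI. Its most abundant gene in replicate 1 was *Emcn* (endomucin) with 128 UMIs, found in 38 of 55 members and in 22 of 40 of replicate 2. *Emcn* was at 332 and 160 CPM against 95.8 and 90.9 CPM in *Myh11*-positive cells (1.42 ± 0.26, edgeR adjusted p = 0.0048), while *Pecam1* had 0 and 1 UMIs and *Cldn5* 0 and 2 in the members. *Emcn* was the only gene called of the 9 tested on this list. From 5 genes of other cell types, RNA of empty droplets was estimated at 3.71% and 4.58% of the members' UMIs and at 4.39% and 6.93% of those of the *Myh11*-positive cells.

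Fibroblast markers differed between the replicates. The list of 10 summed to 704 unscaled CPM in replicate 1 and 4242 in replicate 2, against 440 and 489 in *Myh11*-positive cells, with *Dcn* the most abundant in replicate 2 and 4 and 3 genes at 0. Of its 7 genes tested, edgeR called 0 higher and 0 lower, beside 1.01% and 2.17% of all genes. There were 4 and 0 at an unadjusted p of 0.05, and 1 and 0 both by DESeq2 and with a replicate block. The 6 perineurial markers summed to 34.4 and 1114 CPM against 22.4 and 20.4, and 3 of them (*Lypd2*, *Igfbp6* and *Cldn1*) were called higher. In replicate 1 *Lypd2* had no UMI and *Igfbp6* had 1, so the calls of *Lypd2* and *Igfbp6* rest on replicate 2. A few cells carried fibroblast and perineurial transcripts: 1 member in replicate 1 and 3 in replicate 2 had at least 10 UMIs of *Dcn* plus *Igfbp6*. No *Myh11*-positive cell reached that number. These members held 37 of 50 and 756 of 765 *Dcn* UMIs, and 0 of 1 and 257 of 258 *Igfbp6* UMIs. The 3 cells made up 19.7% of all UMIs of the members in replicate 2. Doublets were removed only by the rule's limits on markers of other types, and whether these cells are doublets was not tested.

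Without these 4 cells, 147 genes were called higher and 372 lower than in *Myh11*-positive cells. *Apod*, at 93.3 and 1940 CPM with 97.4% of its UMIs in 3 cells of replicate 2, went from a log2 fold change of 4.58 to 0.85 and was no longer called (edgeR adjusted p = 0.9). *Tenm2* went from 5.57 to 0.12, *Slc6a13* from 4.96 to 2.38 (adjusted p = 0.71) and *Foxd2os* from 1.60 to 1.13 (adjusted p = 0.21), and *Bace2* was no longer called either (1.75, adjusted p = 0.056). *Col6a3*, *Nfib* (-0.86, adjusted p = 0.097) and *Adcy5* (-2.03, adjusted p = 0.069) also lost their calls.

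The other lists were summed as well. SGC markers summed to 1815 and 2856 CPM against 2796 and 2143 in *Myh11*-positive cells, with 91.8% and 94.6% of the members' sums from *Apoe*. RNA of empty droplets held the same list at 43435 and 42555 CPM, and its part in the members' sums was not tested. Myelinating Schwann cell markers summed to 450 and 480 CPM against 586 and 683. Non-myelinating Schwann cell markers summed to 129 and 181 against 88.1 and 75.0, where *Matn2* was called higher. Neuronal markers summed to 54.4 and 77.2 CPM, and macrophage and leukocyte markers to 11.5 and 33.6 with 7 and 8 of 10 at 0. The part of other cells' RNA in the differences between mural classes was not tested beyond the alternatives that follow. Without the cells of at least 10 *Dcn* plus *Igfbp6* UMIs, 9 of 80 named calls were lost with the same sign. With the RNA of empty droplets subtracted, 5 were lost. With 0 UMIs allowed of the 5 other markers, 16 were lost and 1 turned its direction, and 131 genes were called higher and 351 lower.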

How the data were processed

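The authors aligned reads and counted UMIs with Cell Ranger 7.1.0, and the deposited values are raw UMI counts per gene and barcode for each sample, unfiltered, on mm10 according to the submitters' processing notes. Of 32285 gene identifiers, 32158 were found in GENCODE M21. Barcodes with over 300 genes, at least 1000 UMIs and at most 22% mitochondrial UMIs were kept, assigned to 1 of 8 classes by marker limits, and summed per sample and class. The members and gene lists were chosen with earlier results of these data known.

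Sums were tested with edgeR 4.0.16 in R 4.3.3 (quasi-likelihood, TMM, all 8 classes in 1 fit) where 2 or more profiles held 10 UMIs, leaving out the 16 genes of the marker limits, with Benjamini-Hochberg adjustment and a threshold of 0.05. DESeq2 1.42.0 was an alternative. The study's own methods test single cells, which are not replicates, so sums were tested here. On simulated counts of 17148 genes for the comparison of the 2 mural classes, the test recovered 60% of 2-fold and 97% of 4-fold changes among 200 genes, and 2.48% of its calls were wrong. The 200 genes were drawn only from genes above a minimum level. Counts were simulated with the spread that the fit estimated, alike for all classes. The rates were not measured for changes in lower genes or for a spread that differs between classes. Named genes are those of the rule, the 12 largest changes each way at 50 CPM or more, up to 4 most abundant and 3 called each way per list, those 4-fold above all 3 classes, and the endothelin genes. Shares of cells were computed after thinning to 1000 UMIs, with exact binomial 95% intervals. A UMI counts a molecule, so intervals and the bound of 3 counts cover counting error only. Classes with the same replicate number come from the same library and are paired by it. Their deviations correlated weakly (median r = 0.09 over 28 pairs of classes, over 0.1 in 11). The reported fit has no replicate block, and blocked values are given where they change the call of a named gene. Promoter sequences came from RefSeq. Some genes that the naming rule selects are not reported here.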

Additional observations from a re-analysis of the deposited data

How the results depend on the processing

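Against *Myh11*-positive cells, 545 genes were called. The count was 1051 without a filter on low counts, 953 against cells with at least 5 *Myh11* UMIs, 840 with DESeq2, 213 for members with 0 *Myh11* UMIs (39 cells, of which only the 21 of replicate 2 made a profile, assumed to vary like the other classes), 190 in cells thinned to 1000 UMIs, and 122 to 210 with 1 replicate left out, where the lone samples are assumed to vary alike. Higher calls were 31.7% of the total, 51.3% with DESeq2, 42.2% without the filter and 6.84% after thinning. The 2840 calls against fibroblasts became 1189 after thinning and 1471 to 2017 with 1 replicate left out, and the 4215 against endothelial cells became 1601 and 2712 to 2721. With a replicate block the counts were 530, 2773 and 4074. Of the 545 calls, 493 were kept with the block, which ended the calls of *Adamts5* and *Icam1* and added *Itgb1* (-0.36, adjusted p = 0.046) and *Cald1* (-0.48, adjusted p = 0.046) among named genes. The direction turned for *Kcnq5* with members of 0 *Myh11* UMIs (-0.31), for *Mrtfb* after thinning (-0.10) and for *Tenm2* with 0 UMIs allowed of the 5 other markers (-0.73), and the cause was not tested. Of 80 named genes that were called, contractile ones included, the other 77 kept their sign under each of 14 alternatives that gave a value (73 of 80 genes after thinning, 76 in a fit of the 2 mural classes alone, 78 with either replicate left out, 79 with DESeq2). The genes outside the contractile list that were called under each were *Nrp1*, *Slc7a2*, *Ckb*, *Fgf13*, *Nrgn*, *Rgs7bp* and *Slc8a1*. No longer called, with the same sign, were 46 without replicate 1, 52 without replicate 2, 51 with members of 0 *Myh11* UMIs, 41 after thinning, 16 with 0 UMIs of the 5 other markers, 13 at a mitochondrial share up to 10%, 9 without cells of *Dcn* plus *Igfbp6*, 5 with the RNA of empty droplets subtracted, 4 with DESeq2, 2 with the block and 1 in the fit of the 2 mural classes. The alternative without cells of *Dcn* plus *Igfbp6* was chosen after seeing the data. The summed 349225 and 297948 UMIs limit what can be seen in low genes.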
